A study of Mus musculus with 2 samples.

Results

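The genes of the mouse proteasome and its activators were followed through the differentiation of E14 embryonic stem (ES) cells with retinoic acid. The members were the rows of the deposited gene table whose symbol is PSM, a letter from A to G and a number, which gave 48 of 34376 rows. They were divided by known role into 14 standard subunits of the 20S core, 17 subunits of the 19S regulatory particle, 3 immunoproteasome subunits, 4 activators and 10 others, namely 7 assembly chaperones, 2 tissue-specific core subunits and 1 inhibitor. The Differentiated culture was E14 (strain 129P2/OlaHsd, passage 29) kept for 4.5 days without feeder cells on gelatin, in 10% serum and all-trans retinoic acid at 0.1 µM, and is labelled a mixed population. The Undifferentiated culture was the same line at the same passage, grown on mitomycin-treated mouse embryonic fibroblasts in 15% serum with leukemia inhibitory factor, a cytokine that maintains self-renewal. Before either harvest the feeders were adsorbed to plates; under 0.25% were estimated to remain, and dead cells were put at about 8% in the Differentiated and 2% in the Undifferentiated harvest. Each group is 1 poly(A) RNA library of 1 cell line, read on 2 lanes, so no test between the conditions exists and lane spread covers sequencing and read assignment alone.

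The proteasome is the main protease of the cytosol and nucleus. Its 20S core is a barrel of stacked rings, in which outer alpha rings gate entry and inner beta rings hold the active sites. The 19S particle caps the barrel, binds ubiquitin-tagged proteins, removes the tag, and unfolds and feeds the chain inward with its ATPases. Interferon-gamma is known to induce 3 replacement catalytic subunits and the PA28 activator, which alter the peptides cut for MHC class I presentation. In mouse ES cells the proteasome is known for clearing damaged proteins, and proteasome activity is known to change early in differentiation.

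The sequences below are the 250 bases upstream of the start of 4 members, from RefSeq promoters on build GRCm38.p6. They were chosen to show the immunoproteasome gene with the largest difference, its standard counterpart, another standard catalytic subunit, and the assembly chaperone with the largest difference. Each is written 5′ to 3′ along the gene's own strand. Capitals mark TGANNNNGC (N being any base) and CCAAT, the NF-Y box, on either strand. TGANNNNGC is a loose form of the antioxidant response element core, the site of Nfe2l1 and Nfe2l2, and binding was not tested.
Psmb9, chr17:34187331-34187580, minus strand: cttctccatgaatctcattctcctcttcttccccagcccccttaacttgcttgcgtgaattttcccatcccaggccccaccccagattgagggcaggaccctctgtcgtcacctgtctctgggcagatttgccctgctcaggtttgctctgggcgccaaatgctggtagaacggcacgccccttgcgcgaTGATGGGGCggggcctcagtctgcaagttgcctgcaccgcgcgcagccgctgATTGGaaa
Psmb6, chr11:70525107-70525356, plus strand: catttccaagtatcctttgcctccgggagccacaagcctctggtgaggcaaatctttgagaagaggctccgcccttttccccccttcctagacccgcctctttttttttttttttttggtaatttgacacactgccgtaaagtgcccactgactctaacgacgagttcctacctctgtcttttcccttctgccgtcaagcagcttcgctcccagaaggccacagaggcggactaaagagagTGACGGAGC
Psmb5, chr14:54617996-54618245, minus strand: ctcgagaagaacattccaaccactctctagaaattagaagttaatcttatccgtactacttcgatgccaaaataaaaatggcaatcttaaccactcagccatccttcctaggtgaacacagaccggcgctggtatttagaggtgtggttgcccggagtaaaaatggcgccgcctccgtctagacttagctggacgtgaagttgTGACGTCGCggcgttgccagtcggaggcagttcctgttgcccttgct
Psmg1, chr16:95990961-95991210, minus strand: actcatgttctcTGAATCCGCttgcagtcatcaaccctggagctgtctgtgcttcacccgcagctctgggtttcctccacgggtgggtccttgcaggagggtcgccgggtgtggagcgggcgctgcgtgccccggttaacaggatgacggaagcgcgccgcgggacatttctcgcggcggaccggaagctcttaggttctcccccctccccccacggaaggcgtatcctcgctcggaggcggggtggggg

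All 4 windows hold a match to TGANNNNGC, and they were chosen in part to show it. Over all members with an entry, TGANNNNGC was in 17 of 43 windows (16 of 40 members), against 35.2% of all 32851 windows of that length. CCAAT was in 14 of the 43 windows, against 33.8% of all windows. The interferon-stimulated response element core, written here as GAAA and GAAA parted by 2 bases of any kind, was in 3 of the 43 windows, those of Psmb3, Psmd4 and Psmd9, against 2.98% of all windows. None of the 3 immunoproteasome windows and none of the 5 activator windows held it. These are letter matches on both strands, counted separately for each motif. The table used has no entry for Psma8, Psmb1, Psmb2, Psmb7, Psmc3, Psmd3, Psmd7 or Psmg2. The Psmb9 start lies 226 bases from the start of Tap1, which encodes a subunit of the peptide transporter of the endoplasmic reticulum and is read from the other strand, so that the window shown is shared between the 2 genes.

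Levels are in RPKM, reads scaled by model length and by the reads of the lane, as the deposited values were read; a gene's value is the sum over its transcript models. Ratios are log2 of (Differentiated RPKM + 1) over (Undifferentiated RPKM + 1), taken on the mean of both lanes, which understates differences of weak genes. Genes reaching the floor of 1 RPKM in at least 1 library were called 2-fold higher or 2-fold lower from this ratio. The lanes implied about 33100000 and 32000000 reads in the Differentiated library and 37800000 and 36200000 in the Undifferentiated library, which puts 1 RPKM of a 1 kb model at 32 to 37.8 reads per lane. Of 17899 genes at this floor, 19.1% were higher in Differentiated cells, 8.48% were lower, and the median log2 ratio was 0.12 (quartiles -0.46 and 0.78). The ES cell markers fitted the labels. The 5 ES cell markers were all lower, with summed levels of 62.8 and 59.3 RPKM in the Differentiated lanes and 1441 and 1458 RPKM in the Undifferentiated lanes. The 8 extraembryonic endoderm markers were all higher, with sums of 5438 and 5537 RPKM in Differentiated and 96.5 and 90.3 RPKM in Undifferentiated lanes. In bulk RNA, fewer cells of a type and less RNA per cell cannot be told apart.

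Most proteasome genes had similar levels in both cultures. Of the 47 members at the floor, none was 2-fold higher in Differentiated cells, 3 were 2-fold lower (Psmb9, Psma8 and Psmg1) and 44 lay within 2-fold, as did 72.4% of the 17899 genes at the floor. With a pseudocount of 5 in place of 1, Psmg1 was the only member 2-fold lower, and scaled to equal RPKM sums Psmb9 was. The members' median log2 ratio was -0.09 (quartiles -0.32 and 0.10), and 39 of 47 lay below the median of all genes. Both Differentiated lanes lay below both Undifferentiated lanes in 21 members and above them in 15, against 37.1% and 47.4% of all genes. The only member under the floor was Psmb11, the thymus-specific catalytic subunit of cortical thymic epithelium, with 0.112 and 0.133 RPKM in Differentiated and 0.158 and 0.157 RPKM in Undifferentiated lanes.

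Classes differed in level. The median level was 146 RPKM in Differentiated and 163 RPKM in Undifferentiated cells for the core, and 97 and 99.9 RPKM for the regulatory particle. It was 52.7 and 48.1 RPKM for the activators, and 25 and 21.4 RPKM for the 19S assembly chaperones. The inhibitor had 18.5 and 16.1 RPKM, the 20S assembly chaperones had medians of 15.6 and 20.9 RPKM, and the immunoproteasome subunits had 0.999 and 3.38 RPKM. Neighbouring classes overlapped in part: core subunits ranged from 92.9 to 185 RPKM and regulatory subunits from 58.1 to 197 RPKM in Differentiated cells, while in Undifferentiated cells the ranges were 86.4 to 204 and 57.3 to 327 RPKM. In both libraries the weakest standard subunit of the core stood above every activator, assembly chaperone and immunoproteasome subunit.

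**Figure D1:**
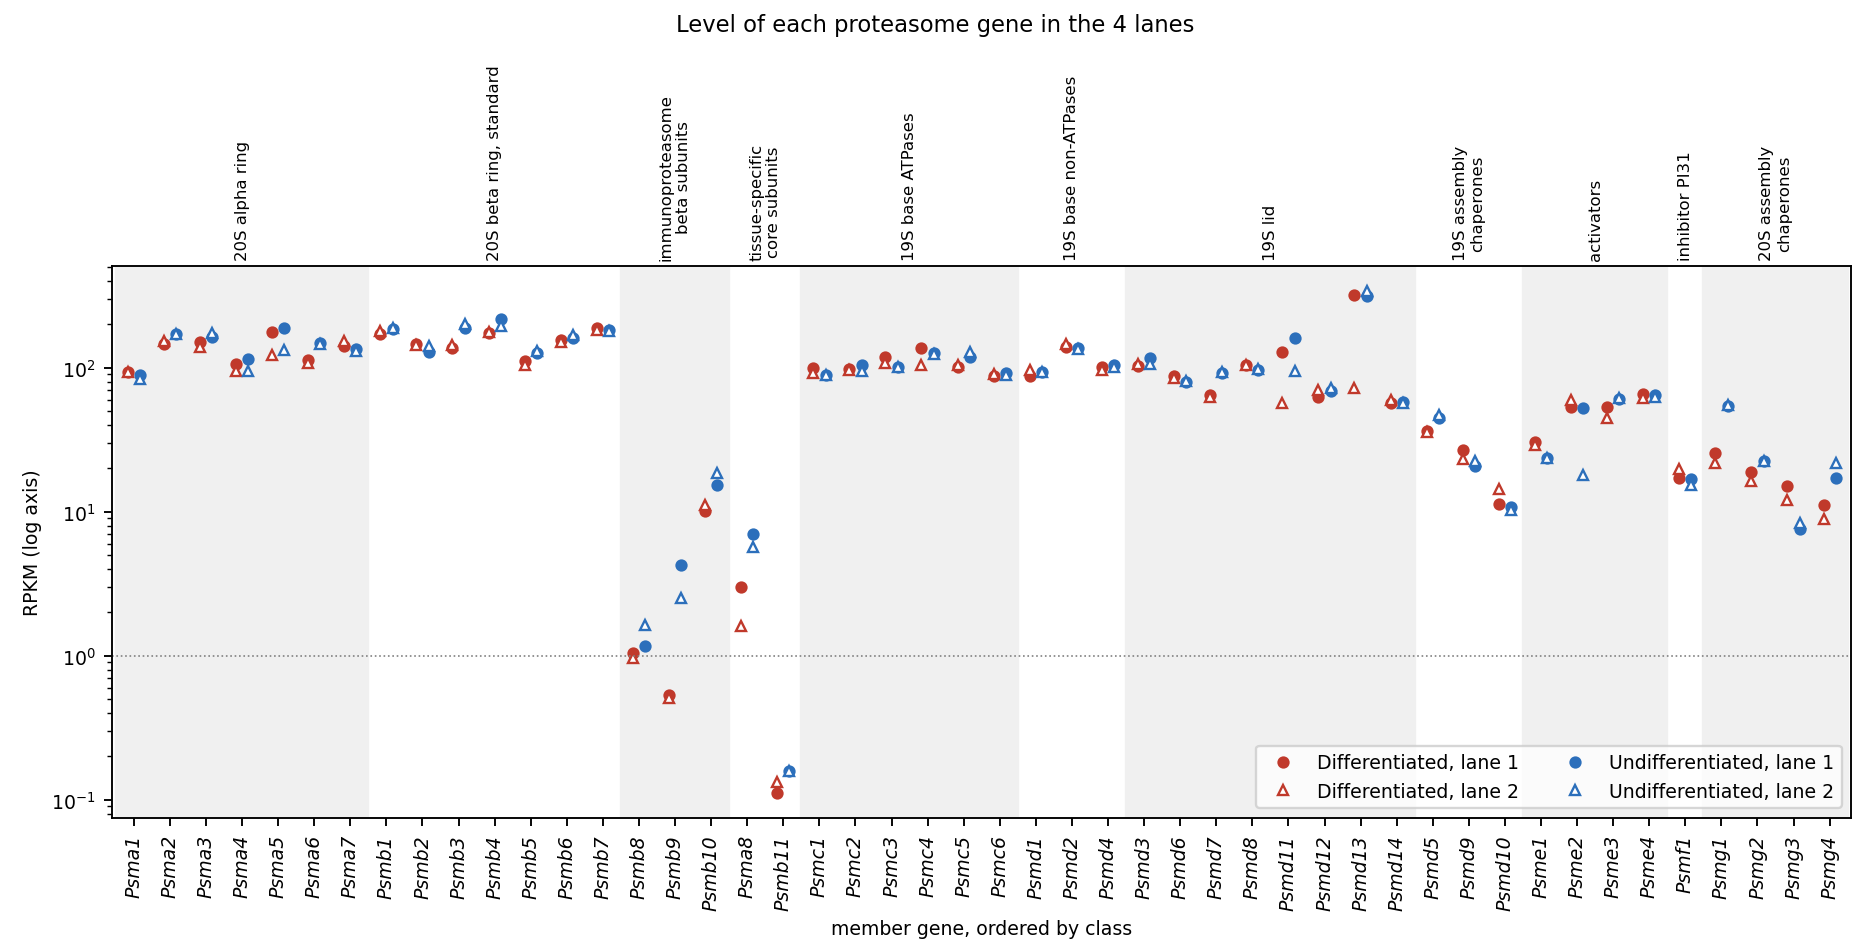
Level of each of the 48 members in RPKM (log axis) in the 4 lanes, ordered by class; red is Differentiated and blue Undifferentiated, circles are lane 1 and triangles lane 2, and the dotted line is the floor of 1 RPKM. Standard core and regulatory subunits form a band between 57.3 and 327 RPKM by library mean. Psmb8 and Psmb11 sit near or under the floor in both libraries, as does Psmb9 in Differentiated lanes.

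The 7 alpha ring subunits, which gate the barrel and dock the activators, had a median log2 ratio of -0.09 and ranged from -0.42 to 0.14. Psma2 had the highest level of the ring averaged over both libraries, with 145 and 154 RPKM in Differentiated lanes and 172 and 171 RPKM in Undifferentiated lanes. Psma7, at the middle of the ring's levels, had 141 and 152 RPKM in Differentiated and 135 and 131 RPKM in Undifferentiated lanes (log2 ratio 0.14, the highest of the ring). Psma1 was the weakest, at 92.6 and 93.2 RPKM in Differentiated and 89.5 and 83.2 RPKM in Undifferentiated lanes. By library mean the ring thus lay between 92.9 and 150.0 RPKM in Differentiated cells and between 86.4 and 172 RPKM in Undifferentiated cells. Psma6 had the lowest ratio of the ring, at 112 and 107 RPKM in Differentiated and 148 and 145 RPKM in Undifferentiated lanes (log2 ratio -0.42). Its lanes lay close together within each library and did not overlap between them. An opposite-strand model that overlaps 523 bases of Psma6 had 301 and 301 RPKM in Differentiated and 439 and 446 RPKM in Undifferentiated lanes, so Psma6 is uncertain too. Psma5 shows the limit of lane precision, with 177 and 123 RPKM in Differentiated and 187 and 132 RPKM in Undifferentiated lanes, where lane 1 was the higher in both libraries. Psma4 lies wholly within a model on the opposite strand, GM7808, listed at 1045 and 1043 RPKM in Differentiated and 1183 and 1215 RPKM in Undifferentiated lanes; reads are not assigned by strand, so Psma4 is uncertain.

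The 7 standard beta subunits had a median log2 ratio of -0.11 and ranged from -0.47 to 0.10. The catalytic members are Psmb5 (chymotrypsin-like), Psmb6 (caspase-like) and Psmb7 (trypsin-like). Psmb5 had 111 and 104 RPKM in Differentiated and 126 and 131 RPKM in Undifferentiated lanes (log2 ratio -0.25), and was the weakest of the ring. Psmb6 had 155 and 151 RPKM in Differentiated and 161 and 169 RPKM in Undifferentiated lanes (log2 ratio -0.11). Psmb7 had 187 and 183 RPKM in Differentiated and 183 and 180.2 RPKM in Undifferentiated lanes (log2 ratio 0.03). Thus the catalytic subunits kept their order, with Psmb7 the highest and Psmb5 the lowest in all 4 lanes. Among the structural beta subunits, Psmb4 had the highest level of the ring averaged over both libraries, with 174 and 177 RPKM in Differentiated and 216 and 193 RPKM in Undifferentiated lanes. Psmb3 had the lowest ratio, with 136 and 144 RPKM in Differentiated and 189 and 200.3 RPKM in Undifferentiated lanes (log2 ratio -0.47 in both lanes taken separately). Psmb2 had the highest ratio, 0.10, with 145 and 143 RPKM in Differentiated and 128 and 140.2 RPKM in Undifferentiated lanes. Psmb1 had 172 and 179 RPKM in Differentiated and 186 and 189 RPKM in Undifferentiated lanes. Summed over the 14 standard subunits, the core had 1975 RPKM in Differentiated and 2166 RPKM in Undifferentiated cells, a ratio of 0.912, and 13 of the 14 lay below the median ratio of all genes.

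The regulatory particle had a median log2 ratio of -0.04 over its 17 subunits. The 6 ATPases of the base, which unfold substrates, ranged from -0.28 to 0.17 with a median of -0.03. Psmc3 had the highest ratio, with 119 and 108 RPKM in Differentiated and 101 and 100.4 RPKM in Undifferentiated lanes. Psmc5 had the lowest, with 100.5 and 104 RPKM in Differentiated and 119 and 129 RPKM in Undifferentiated lanes. By level averaged over both libraries the ATPases form a narrow group, from Psmc6 with 87.6 and 90.4 RPKM in Differentiated and 92.3 and 88.5 RPKM in Undifferentiated lanes, up to Psmc4 with 136 and 104 RPKM in Differentiated and 127 and 124 RPKM in Undifferentiated lanes. Psmc2 stood between them, with 98.1 and 95.9 RPKM in Differentiated and 104 and 95.3 RPKM in Undifferentiated lanes, which overlap. A same-strand model, RPL7-PS7, spans all 18505 bases of Psmc2. That model had 317 and 326 RPKM in Differentiated and 548 and 559 RPKM in Undifferentiated lanes, so Psmc2 is uncertain. The 3 other base subunits were close to equal between the libraries. Psmd2, a large scaffold subunit that binds ubiquitin-like domains, had 139.6 and 145 RPKM in Differentiated and 137 and 135 RPKM in Undifferentiated lanes (log2 ratio 0.07). Psmd4, a ubiquitin receptor, had 101 and 95.6 RPKM in Differentiated and 105 and 101 RPKM in Undifferentiated lanes (log2 ratio -0.07). Psmd1, the other large scaffold, had 87.4 and 96.7 RPKM in Differentiated and 92.7 and 93.7 RPKM in Undifferentiated lanes.

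The 8 lid subunits had a median log2 ratio of -0.09, and held the 3 members of the particle furthest below 0. Psmd7, the partner of the deubiquitinase Psmd14, had 64 and 62.5 RPKM in Differentiated and 91.6 and 93.2 RPKM in Undifferentiated lanes (log2 ratio -0.54). Psmd14, which removes ubiquitin chains from substrates, had 56.8 and 59.4 RPKM in Differentiated and 57.6 and 57 RPKM in Undifferentiated lanes (log2 ratio 0.02). Members of this pair therefore differed in their ratio, since the Psmd7 lanes were separate and the Psmd14 lanes overlapped. Psmd8 had 104 and 105 RPKM in Differentiated and 96.5 and 97.8 RPKM in Undifferentiated lanes, and Psmd6 had 87.2 and 85.2 RPKM in Differentiated and 79.6 and 80.7 RPKM in Undifferentiated lanes. Both had the highest ratio of the lid, 0.10. A same-strand model, BC016222, spans all 8801 bases of Psmd6. That model had 19.3 and 18.2 RPKM in Differentiated and 8.18 and 9.76 RPKM in Undifferentiated lanes, so Psmd6 is uncertain. Psmd13 depended on 1 lane, and the level of Psmd11 differed between lanes. Psmd13 had 321 and 72.5 RPKM in Differentiated and 313 and 342 RPKM in Undifferentiated lanes, so its log2 ratio of -0.73 is 0.04 in lane 1 and -2.22 in lane 2. A same-strand model of the table that overlaps 1194 bases of Psmd13 had 116 and 116 RPKM in Differentiated and 100.1 and 100 RPKM in Undifferentiated lanes, and did not share the drop in lane 2. Psmd11 had 128 and 57 RPKM in Differentiated and 160.0 and 94 RPKM in Undifferentiated lanes (log2 ratio -0.45), with lane 2 the lower in both libraries. Its log2 ratio was -0.31 in lane 1 and -0.71 in lane 2. Psmd3 and Psmd12 had ratios of -0.10 and -0.09. The particle's summed level was 1722 RPKM in Differentiated and 1925 RPKM in Undifferentiated cells, and in lane 1 alone it was 1895 and 1951 RPKM.

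Over the 31 standard subunits of core and regulatory particle together, the median log2 ratio was -0.07 (quartiles -0.22 and 0.05), none passed 2-fold, and 29 lay below the median of all genes. The direction of so small a difference depends on scaling: scaled to equal RPKM sums, the median became 0.14 for the core and 0.20 for the regulatory particle, against a median of all genes of 0.33.

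**Figure D2:**
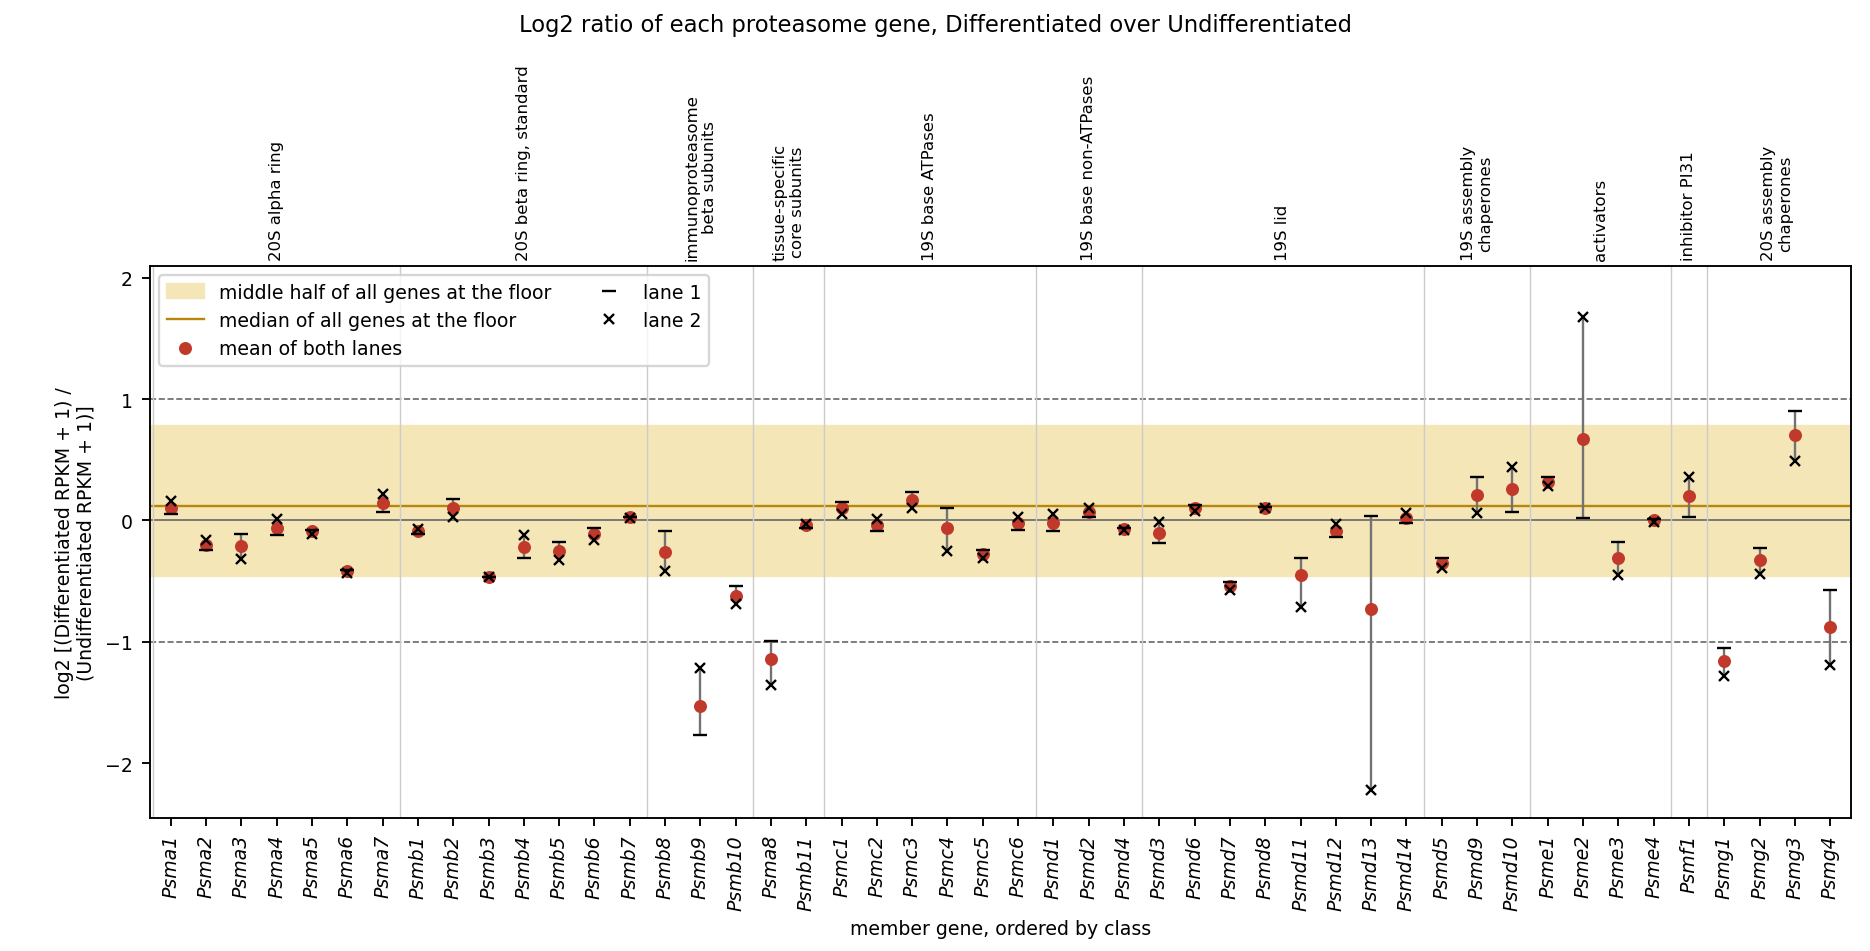
Log2 ratio, Differentiated over Undifferentiated, of each member by class: the red point is the mean of both lanes, the dash lane 1 and the cross lane 2. The shaded band spans the quartiles of all genes at the floor (-0.46 to 0.78), the dashed lines mark 2-fold, and Psmd13 and Psme2 show the widest gap between lanes.

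The immunoproteasome subunits were weak in both libraries; Psmb9 was 2-fold lower in Differentiated cells, and Psmb8 and Psmb10 lay below 0 but within 2-fold. Psmb10, which replaces Psmb7, was the strongest of the 3, with 10.1 and 11.1 RPKM in Differentiated and 15.2 and 18.6 RPKM in Undifferentiated lanes (log2 ratio -0.62). Its lanes did not overlap and its single transcript model is a RefSeq model. Psmb9, which replaces Psmb6, had 0.532 and 0.505 RPKM in Differentiated and 4.24 and 2.52 RPKM in Undifferentiated lanes (log2 ratio -1.53). Psmb8, which replaces Psmb5, had 1.04 and 0.961 RPKM in Differentiated and 1.17 and 1.63 RPKM in Undifferentiated lanes (log2 ratio -0.26). So the lanes of all 3 were separate between the libraries, with both Differentiated lanes below, as in 37.1% of all genes at the floor. Psmb8 stood close to the floor. Summed, the 3 subunits had 11.7 and 12.6 RPKM in Differentiated and 20.6 and 22.7 RPKM in Undifferentiated lanes, a ratio of 0.561.

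The Psmb9 difference rests on transcript models outside RefSeq. Its RefSeq model, which spans the whole gene, had 0.302 and 0.322 RPKM in Differentiated and 0.919 and 0.0838 RPKM in Undifferentiated lanes, which overlap (log2 ratio -0.19). It made up 60.2% of the gene's summed value in Differentiated and 14.8% in Undifferentiated cells. The remainder in Undifferentiated cells lay mostly in 3 shorter models, at 34321227 to 34324164, 34320975 to 34324283 and 34318981 to 34320676 of chromosome 17 (build mm9), with means of 1.18, 0.987 and 0.606 RPKM, against 0.0534, 0.0256 and 0.0668 RPKM in Differentiated cells. Psmb8 also changed with the model chosen: its RefSeq model had 0.809 and 0.0465 RPKM in Differentiated and 0.408 and 0.664 RPKM in Undifferentiated lanes, which overlap.

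As a share of each pair of catalytic subunits, the immunoproteasome form was a small part in either library. Psmb9 was 0.342% and 0.333% of Psmb9 plus Psmb6 in Differentiated and 2.56% and 1.47% in Undifferentiated lanes. Psmb10 was 5.15% and 5.71% of Psmb10 plus Psmb7 in Differentiated and 7.67% and 9.34% in Undifferentiated lanes. Psmb8 was 0.926% and 0.913% of Psmb8 plus Psmb5 in Differentiated and 0.918% and 1.23% in Undifferentiated lanes, which overlap. Together the 3 made up 2.65% of the level of the 6 catalytic genes in Differentiated and 4.35% in Undifferentiated cells, of which Psmb10 was the larger part. These shares are of RPKM per gene and cover mRNA, not assembled particles.

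**Figure D3:**
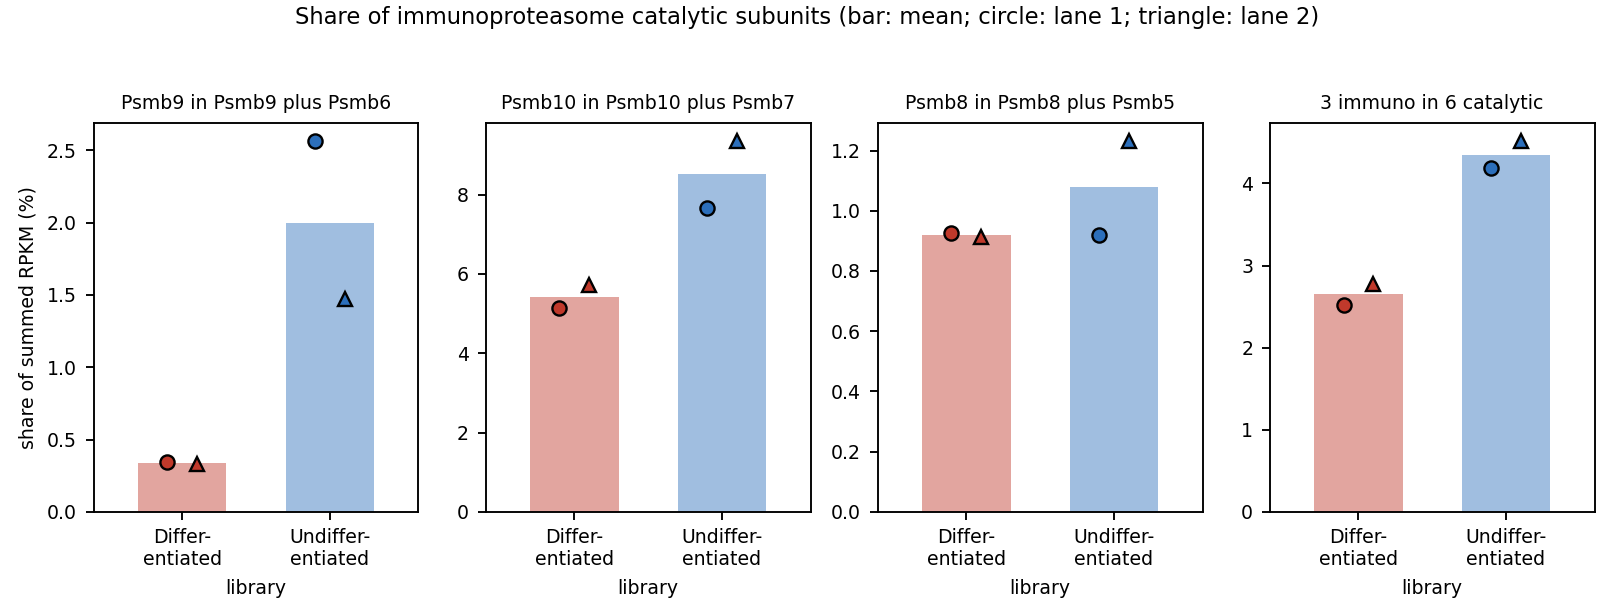
Share (%) of the immunoproteasome subunit in the summed RPKM of each catalytic pair, and of the 3 together in all 6, with Differentiated left and Undifferentiated right; bars are means of both lanes, circles lane 1 and triangles lane 2. Differentiated lanes lie below Undifferentiated lanes in each panel but that of Psmb8, where they overlap, and the vertical scales differ between panels.

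Psma8, a germ cell alpha subunit that takes the place of Psma7 in testis, had 3.02 and 1.6 RPKM in Differentiated and 6.97 and 5.65 RPKM in Undifferentiated lanes (log2 ratio -1.14). It was 2.1% and 1.04% of Psma8 plus Psma7 in Differentiated and 4.92% and 4.14% in Undifferentiated lanes. Lane 1 alone gave a log2 ratio of -0.99, and its RefSeq model alone gave -0.95, each just short of 2-fold.

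The activators showed no common direction. Psme1 and Psme2 encode the PA28 alpha and beta subunits, which form a ring that opens the core for peptides. Psme1 had 30.4 and 28.8 RPKM in Differentiated and 23.5 and 23.5 RPKM in Undifferentiated lanes (log2 ratio 0.32), with separate lanes. Psme2 had 53 and 59.8 RPKM in Differentiated and 52.4 and 18 RPKM in Undifferentiated lanes (log2 ratio 0.67). The Psme2 ratio was 0.02 in lane 1 and 1.68 in lane 2, and its RefSeq models alone gave 0.24. Psme2b-ps, a copy of Psme2 on chromosome 11 with which it can share reads, had 29.3 and 29.6 RPKM in Differentiated and 21.9 and 21 RPKM in Undifferentiated lanes, so the Psme2 value is uncertain. Psme3, the nuclear PA28 gamma, had 53 and 44.8 RPKM in Differentiated and 60.2 and 61.8 RPKM in Undifferentiated lanes (log2 ratio -0.31). Psme4, the large single-chain activator PA200 found in nuclei, had 65.3 and 61.7 RPKM in Differentiated and 64.8 and 62.2 RPKM in Undifferentiated lanes (log2 ratio 0.00). Thus Psme1 stood on the higher side and PA28 gamma on the lower side, the Psme4 lanes overlapped, and the Psme2 ratio depended on the lane. The class median of 0.16 moved to 0.01 in lane 1 alone and to 0.00 without Psme2, whose lanes differed by more than 2-fold. Psmf1, the inhibitor PI31, had 17.2 and 19.9 RPKM in Differentiated and 16.8 and 15.3 RPKM in Undifferentiated lanes (log2 ratio 0.20).

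Among the assembly chaperones of the core, 3 were lower in Differentiated cells in both lanes and 1 was higher, and Psmg1 was past 2-fold. Psmg1 and Psmg2 act as a pair that starts the alpha ring, and Psmg3 and Psmg4 form the other pair that acts on it. Psmg1 had 25.6 and 21.9 RPKM in Differentiated and 54.1 and 54.7 RPKM in Undifferentiated lanes (log2 ratio -1.16). It was 2-fold lower in lane 1, in lane 2 and by its RefSeq model alone (log2 ratio -1.04), and fell short of 2-fold when scaled to equal RPKM sums. Its partner Psmg2 had 18.9 and 16.4 RPKM in Differentiated and 22.3 and 22.6 RPKM in Undifferentiated lanes (log2 ratio -0.33). Psmg4 had 11.2 and 8.95 RPKM in Differentiated and 17.1 and 21.8 RPKM in Undifferentiated lanes (log2 ratio -0.88, and -1.19 in lane 2). Psmg3 went the other way, with 15.1 and 12 RPKM in Differentiated and 7.6 and 8.29 RPKM in Undifferentiated lanes (log2 ratio 0.70). The lanes of all 4 were separate between the libraries, as in most genes at the floor (37.1% with both Differentiated lanes below, 47.4% above). So within each pair the partners differed, Psmg1 standing further below 0 than Psmg2, and Psmg3 on the other side of 0 from Psmg4. The 4 summed to 65 RPKM in Differentiated and 104 RPKM in Undifferentiated cells, a ratio of 0.623. Chaperones of the 19S base stayed closer to 0: Psmd5 had 36 and 35.5 RPKM in Differentiated and 44.9 and 46.9 RPKM in Undifferentiated lanes (log2 ratio -0.35). Psmd9 had 26.7 and 23.3 RPKM in Differentiated and 20.6 and 22.3 RPKM in Undifferentiated lanes (log2 ratio 0.21). Psmd10, also called gankyrin, had 11.3 and 14.4 RPKM in Differentiated and 10.7 and 10.3 RPKM in Undifferentiated lanes (log2 ratio 0.26).

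**Figure D4:**
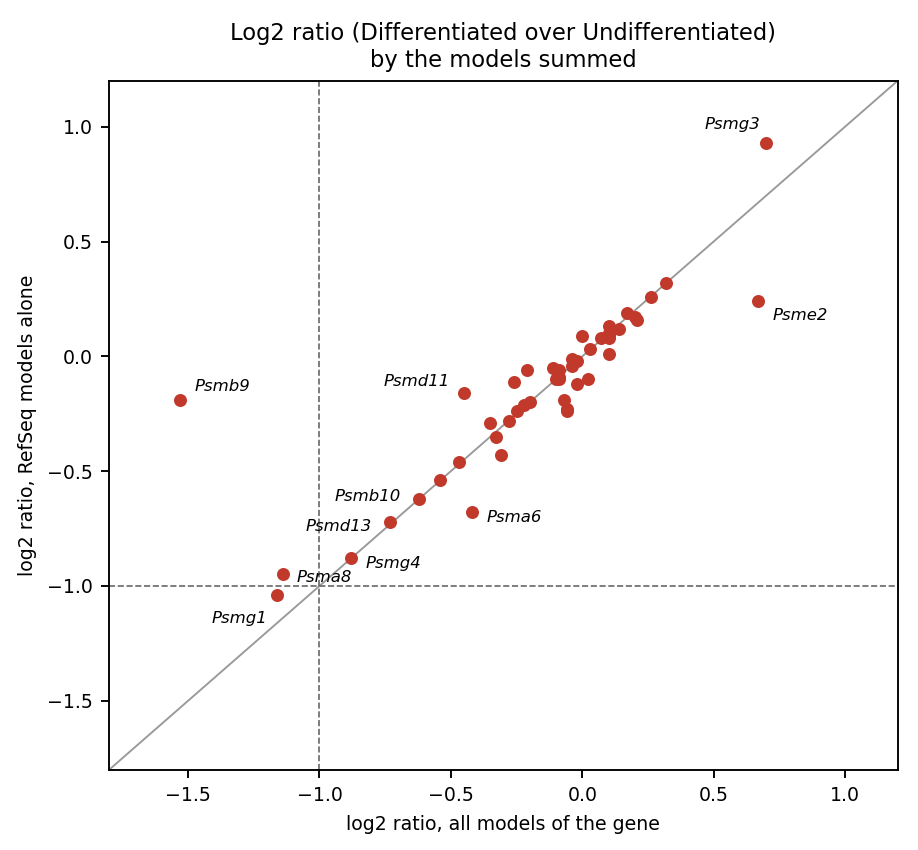
Log2 ratio, Differentiated over Undifferentiated, of each member from all transcript models (horizontal axis) and from RefSeq models alone (vertical axis); dashed lines mark 2-fold lower and the diagonal equal values. Most members lie near the diagonal, Psmb9 moves from -1.53 to -0.19, and Psmg1 is past 2-fold on both axes.

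Promoter shares of the members were compared between the libraries. The same count was not made over all genes, so the members cannot be set against other genes here. Of 27 members with more than 1 promoter in the deposited table, 25 had at least 5 RPKM in both libraries, and in none did the share of a promoter differ by 30 percentage points. Psmd11 and Psmd4 exceeded 10 points. The RefSeq promoter of Psmd11 held 45% and 95.9% of the gene in Differentiated and 43.4% and 42.6% in Undifferentiated lanes. That of Psmd4 held 65.4% and 100% in Differentiated and 62.7% and 63.4% in Undifferentiated lanes. In both genes lane 2 of the Differentiated library alone stood apart from the 3 other lanes.

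Other genes of the pathway were read against the 19.1% higher and 8.48% lower of all genes. Among 4 further subunits and assembly factors found in the table, none passed 2-fold. Shfm1, a small lid subunit, had 120.0 and 118 RPKM in Differentiated and 91.6 and 86.8 RPKM in Undifferentiated lanes (log2 ratio 0.41). Adrm1, a ubiquitin receptor, had 90.7 and 93.9 RPKM in Differentiated and 120.0 and 126 RPKM in Undifferentiated lanes (log2 ratio -0.41). Pomp, which completes the core, had 108 and 100.4 RPKM in Differentiated and 99.4 and 98.5 RPKM in Undifferentiated lanes (log2 ratio 0.07). These levels lie in the band of the standard subunits. None of 5 proteasome-bound enzymes and factors passed 2-fold either; Ube3a, Txnl1 and Uchl5 had the largest ratios, 0.40, 0.33 and -0.30.

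Of 10 ubiquitin shuttles and factors of the p97 unfoldase, 1 was higher and none lower. Ubqln2, which carries ubiquitin-tagged proteins to the proteasome, had 116 and 115 RPKM in Differentiated and 22.2 and 22.1 RPKM in Undifferentiated lanes (log2 ratio 2.33). Its relative Ubqln4 had 35.5 and 34.4 RPKM in Differentiated and 63.9 and 63.7 RPKM in Undifferentiated lanes (log2 ratio -0.85). The lanes of both genes were nearly equal within each library, and the 2 ubiquilins stood on opposite sides of 0. Vcp, the p97 unfoldase itself, had 330.1 and 313 RPKM in Differentiated and 198 and 185 RPKM in Undifferentiated lanes (log2 ratio 0.74). None of 6 genes for ubiquitin and its activation passed 2-fold. Ubb had a log2 ratio of -0.53 and Rps27a of -0.56. Ubiquitin genes share near-identical repeats, so these values are uncertain.

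Among 9 regulators of proteasome genes, 3 were higher and none lower in Differentiated cells. They are partners or an inhibitor of the Nfe2l1 and Nfe2l2 transcription factors. Mafk, a small Maf partner, had 23.3 and 22 RPKM in Differentiated and 3.58 and 3.87 RPKM in Undifferentiated lanes (log2 ratio 2.32). Maff, another small Maf, had 15.4 and 17.6 RPKM in Differentiated and 5.13 and 5.26 RPKM in Undifferentiated lanes, a linear ratio of 3.18. Keap1, which holds Nfe2l2 back, had 19.4 and 17.2 RPKM in Differentiated and 8.29 and 7.48 RPKM in Undifferentiated lanes (log2 ratio 1.12). Each had separate lanes, with both Differentiated lanes above, as in 47.4% of all genes at the floor. Nfe2l2 itself had 22 and 21.2 RPKM in Differentiated and 10.7 and 11.4 RPKM in Undifferentiated lanes (log2 ratio 0.90), just within 2-fold. Foxo4 had a log2 ratio of 0.87 and Ngly1, which deglycosylates Nfe2l1, of 0.75. Mafg, the other small Maf of the list, had a log2 ratio of 0.02 with overlapping lanes. Ddi2, a protease that activates Nfe2l1, had -0.53, with both Differentiated lanes below. Nfe2l1, named like Mafg and Ddi2 after its values were seen, had 52.2 and 51.7 RPKM in Differentiated and 40.9 and 41.7 RPKM in Undifferentiated lanes (log2 ratio 0.33).

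Genes of MHC class I presentation stood apart from the immunoproteasome subunits that serve it. Of 10 such genes, 9 were higher in Differentiated cells and none lower, with a median log2 ratio of 1.80, while the 3 immunoproteasome subunits had a median of -0.62, and of -0.19 by RefSeq models alone. B2m, the light chain of class I molecules, had 97.6 and 101 RPKM in Differentiated and 7.97 and 9.22 RPKM in Undifferentiated lanes (log2 ratio 3.39). Tapbp, which loads the peptide, had 16.4 and 18.1 RPKM in Differentiated and 3.15 and 3.6 RPKM in Undifferentiated lanes (log2 ratio 2.06). Tap1, the neighbour of Psmb9, had 12.4 and 10.7 RPKM in Differentiated and 3.99 and 0.719 RPKM in Undifferentiated lanes (log2 ratio 1.90). Thus the neighbours stood on opposite sides, though the Psmb9 RefSeq model gave a log2 ratio of -0.19. Summed over all models, Psmb9 had 4.24 and 2.52 RPKM in Undifferentiated lanes, above Tap1, while in each Differentiated lane it was below Tap1. By its RefSeq model Psmb9 had 0.919 and 0.0838 RPKM in Undifferentiated lanes, below Tap1 there too. The Undifferentiated lanes of Tap1 differed 5.54-fold. The models of both genes overlap by 200 bases in mm9, where reads of either strand cannot be told apart. The heavy chains H2-D1 and H2-K1 had log2 ratios of 2.04 and 1.87; they have near-identical relatives, and the H2-D1 lanes in Undifferentiated cells were 3.5 and 10.1 RPKM. The chaperones Pdia3 and Calr, the trimming peptidase Erap1 and the transporter subunit Tap2 had log2 ratios of 1.73, 1.25, 1.34 and 1.19, and Canx, another chaperone, had 0.66.

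Of 9 interferon regulators at the floor, 5 were higher and none lower. Ifngr2 had 11.8 and 11.7 RPKM in Differentiated and 1.68 and 1.84 RPKM in Undifferentiated lanes (log2 ratio 2.21), and Ifngr1, the other chain of the interferon-gamma receptor, had a ratio of 1.95. The receptor kinases Jak2 and Jak1 had ratios of 1.91 and 1.43. Nlrc5, the class I transactivator, had a ratio of 1.58 that rests on 1 lane, with 6.22 and 0.332 RPKM in Differentiated and 0.666 and 0.193 RPKM in Undifferentiated lanes. Stat2, Irf1 and Irf9 had ratios of 0.96, 0.70 and 0.43, and Irf8 was below the floor. Of 8 feeder fibroblast markers at the floor, 4 were higher and none lower in Differentiated cells; the 9 listed summed to 234 and 232 RPKM in Differentiated and 42.2 and 39 RPKM in Undifferentiated lanes, mostly from Col1a1, Col1a2 and Col3a1, and Lum was at or near 0. The other 4 at the floor, Col6a1, Thy1, Fap and Postn, had log2 ratios of -0.21, -0.50, -0.59 and -0.49. Of 6 blood markers found, 2 were at the floor and neither passed 2-fold; the sum of the 6 was 47.8 and 50.9 RPKM in Differentiated and 75.9 and 75.4 RPKM in Undifferentiated lanes, mostly from Itgam, and Ptprc was at or near 0. The part of other cell types in these presentation and interferon results was not tested.

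**Figure D5:**
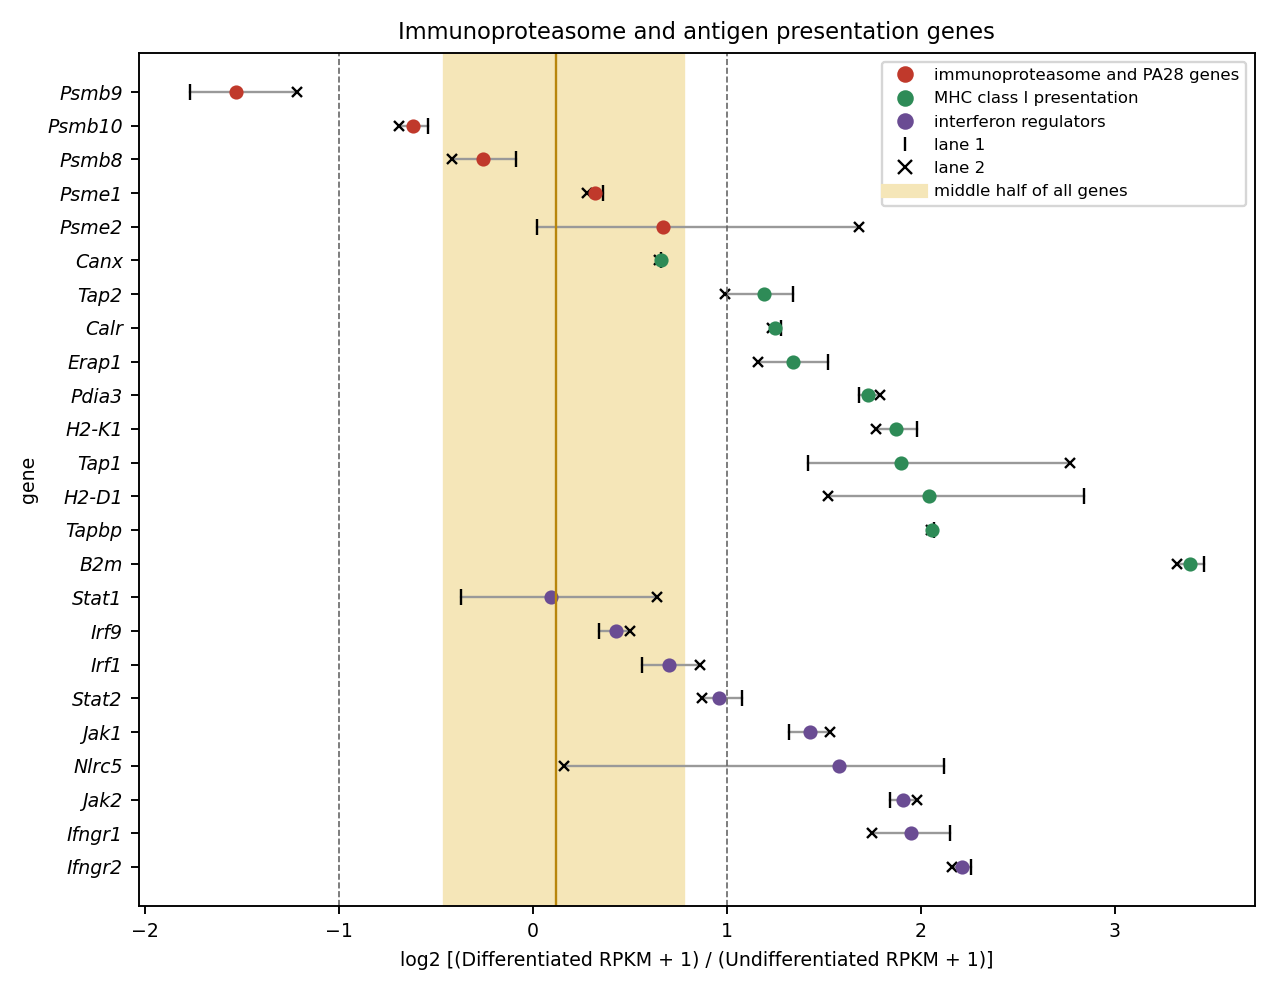
Log2 ratio, Differentiated over Undifferentiated, of the immunoproteasome and PA28 genes (red), MHC class I presentation genes (green) and interferon regulators at the floor (purple); points are means of both lanes, bars lane 1 and crosses lane 2, and the band spans the quartiles of all genes. The 3 immunoproteasome subunits lie below 0, and 9 of the 10 presentation genes lie above 1.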

How the data were processed

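Poly(A) RNA from 5 µg of total RNA per library was made into libraries of about 250 bp and sequenced from 1 end (36 bp) on 2 lanes, per the labels' protocols. The authors deposited gene, promoter and transcript values per lane, which were read as RPKM: in 7878 single-exon genes, 82.3% to 82.6% of low values fell on whole reads within 5% of a read. The build is mm9 per the submitters' processing notes; for the aligner, counting program and annotation: not given in the sources used here. Strand is not recorded by the kit. Of rows sharing a symbol the highest was kept, leaving 34126 genes. Members and lists were chosen with earlier results of these data known. Lane values were printed for members of the small classes, for those past 2-fold, and for the highest, middle and lowest level and extreme ratios of other classes, others being added; for lists, members past 2-fold and up to 3 more by size of ratio. Python 3.11.15, numpy 2.4.6, pandas 2.3.3 and matplotlib 3.10.9 were used, and the code was tested on simulated data. A list's Paaf1, Ecm29 and Hbb-b1 had no matching symbol, and protein sequences were not used here. With 1 library per group, no p-value is given. Settings tried were the pseudocount, the floor, single lanes, 4 scalings, duplicate rows, lane agreement and RefSeq models. Some members of the lists are not reported here.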

Additional observations from a re-analysis of the deposited data

How the results depend on the processing

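No paired analysis was possible because each group has 1 library, and for the same reason no replicate could be left out. The cause of each move below was not tested. Medians changed sign for the core under equal sums, for the regulatory particle under equal sums and in lane 2, and for the activators under the trimmed mean. With a pseudocount of 5 the members 2-fold lower were 1 (Psmg1) and the immunoproteasome median was -0.48. Lane 1 alone gave 2 lower members (Psmb9 and Psmg1), an activator median of 0.01, and 2 higher genes in the 4 lists of further subunits, bound factors, shuttles and ubiquitin. Lane 2 alone gave 1 higher member (Psme2), 5 lower, medians of -0.12 (core) and 0.01 (regulatory particle), 1 lower gene in the 4 lists and 2 members past 30 points of promoter share. Scalings shifted the median of all genes by -0.12 (median), -0.14 (trimmed mean), -0.11 (upper quartile) and 0.21 (equal RPKM sums), and the higher share of 2-fold calls was 69.3% as deposited and 59.6%, 58.1%, 61% and 80.5% under these. Median scaling gave medians of -0.25 (core; sum -0.28), -0.19 (regulatory particle), -0.75 (immunoproteasome; sum -0.98) and 0.02 (activators). The trimmed mean gave -0.27 (sum -0.30), -0.21, -0.77 (sum -1.0) and -0.01 (sum -0.05) in that order, and 1 lower gene in the 4 lists. The upper quartile gave -0.23 (sum -0.26), -0.17, -0.74 (sum -0.96) and 0.03. Equal sums gave 0.14 (sum 0.11), 0.20 (sum 0.09), -0.39 (sum -0.59) and 0.40 (sum 0.36), with 1 lower member (Psmb9), 5 higher regulators and 2 higher genes in the 4 lists. Keeping genes whose lanes lay within 2-fold put the activators at 0.00 (sum -0.06). RefSeq models alone, chosen after seeing the data, gave 1 lower member (Psmg1), -0.08 (core), -0.10 (regulatory particle), and sums of -0.66 (immunoproteasome) and -0.06 (activators). They left Psmb8 and Psmb9 under the floor; without a floor the immunoproteasome median was -0.19. Of the values of single members under these settings, 468 stayed within lane spread and 153 moved. These counts do not measure stability. Floor, duplicate-row and lane-agreement settings cannot change the ratio of a single member, and single lanes were compared with their own spread. Depth limits Psmb8 and Psmb11, which lie near or under 1 RPKM in both libraries, and Psmb9, which does so in Differentiated cells.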
